A study of Mus musculus with 6 samples.

Results

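Respiratory complex I, the NADH:ubiquinone oxidoreductase of the inner mitochondrial membrane, was followed through the RNA of its subunits in mouse liver. Members were the protein-coding genes named Ndufa, Ndufb, Ndufc, Ndufs or Ndufv plus a number, Ndufab1, and the genes whose names start with mt-Nd. This gave 44 of the 24034 genes in the table, 37 encoded in the nucleus and 7 in mitochondrial DNA. Whole liver was taken from C57BL/6 mice at 25 weeks of age, giving 3 libraries labelled HO, with the genotype lncenc13A/3A, and 3 labelled WT, with the genotype lncenc1wt/wt. HO was read as homozygous for a mutant allele of Lncenc1, a gene for a long non-coding RNA, since the series speaks of knockout mice. The sources used here do not say what the 3A allele changes. Lncenc1 RNA itself was not analysed here, and the genotypes are therefore taken from the labels alone. No substrain is given, and a difference of genetic background cannot be told apart from the mutation. The labels do not say that libraries came from separate animals, so that the p-values cover only the spread among these 6 libraries, which may be technical.

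Complex I takes electrons from NADH and passes them to ubiquinone, and uses the energy released to pump protons out of the matrix. Its matrix arm holds a flavin and a chain of iron-sulphur clusters, and its membrane arm holds the proton pumps. Mitochondrial DNA encodes the core of the membrane arm, pumps included, and the nucleus encodes the rest of the enzyme, so that both genomes supply its core. In hepatocytes it re-oxidises the NADH made by fatty acid oxidation and the citric acid cycle.

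Levels are in FPKM, which scales the fragments of each gene by its length and by the size of the library, so that levels can be set side by side between genes, except where a gene shares reads with a copy. A scaling by median of ratios gave factors of 0.955 to 0.976 in HO and 1.034 to 1.04 in WT. Medians of the members, signs and calls that it changes are given with it. Summed levels, counts of groups without overlap and counts at an unadjusted p are on FPKM as deposited. Dividing by these factors raises HO levels and lowers WT levels, so groups given as lower in HO without overlap can overlap after it. Summed FPKM was 495570 to 518218 in the HO libraries and 499151 to 506986 in the WT libraries. The defining markers of hepatocytes were all present, with 12 of 12 listed genes in the table and their summed level at 46233 to 50112 FPKM in HO livers and 51143 to 54132 FPKM in WT livers. Their median log2 change was -0.03, with 2 lower in HO without overlap (Alb, the largest part of the sum, and Ttr) and 5 higher without overlap, of which Cps1 passed the test. Summed levels of 7 red cell genes were 319 to 548 FPKM in HO and 645 to 667 FPKM in WT, those of 10 stellate cell and fibroblast genes 74.6 to 95.3 in HO and 110.4 to 138 in WT, and those of 10 endothelial genes 65.4 to 68.7 in HO and 69.5 to 82.8 in WT. Those of 12 macrophage genes were 127 to 156 in HO and 145 to 241 in WT, those of 8 cholangiocyte genes 27.2 to 30.7 in HO and 29.7 to 34.6 in WT, and those of 10 lymphocyte genes 2.29 to 2.56 in HO and 1.89 to 2.41 in WT. Divided by the median-of-ratios factors, the hepatocyte and endothelial sums overlapped between the groups, while the red cell and the stellate cell and fibroblast sums did not. Of 3 skeletal muscle genes in the table, 2 were at 0 in every library. Of the non-hepatocyte markers that passed the filter on low values, which left 1 of the lymphocyte, 1 of the muscle, 5 of the cholangiocyte and 5 of the red cell genes, none passed the test. The part of cell composition in the results below was not tested, and in whole tissue fewer cells of a type and less RNA per cell cannot be told apart.

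Of the 37 nuclear genes of complex I, 1 passed the test, Ndufb8, which fell in HO livers. The others did not pass, and their log2 changes ran from -1.995 for Ndufa12 to 0.12 for Ndufs1. Their summed level was 3009, 2596 and 2663 FPKM in HO replicates 1, 2 and 3, against 3400.1, 3597 and 3113 FPKM in WT replicates 1, 2 and 3. The sums did not overlap as deposited, but the highest HO and the lowest WT library were close to each other. Divided by the median-of-ratios factors, the sum of HO replicate 1 lay above that of WT replicate 3, so that the groups overlapped. As a share of all FPKM this was 0.545% ± 0.033 in HO and 0.668% ± 0.0436 in WT (SD, n = 3 each). All 37 genes passed the filter on low values (a mean of 0.5 FPKM), and 36 had a negative log2 change, a sign seen in 64.6% of all 13250 genes fitted. The median of the 37 log2 changes was -0.29 on the log2(FPKM + 0.5) scale, beside -0.09 over all genes fitted. The quartiles of the 37 were -0.37 and -0.22, and those of all genes -0.27 and 0.08. All genes fitted were not matched to the 37 in length or level. The median exonic length was 1569 bases for the 37 and 3838 for all genes fitted, and the part of length was not tested. Of the 37, 1 was lower and 0 were higher at a limma adjusted p under 0.05, which 0.815% of all genes reached as lower, 0.325% as higher and 1.14% in either direction. With array weights, which count HO replicate 1 and WT replicate 3 for less, 9 were lower, against 5.22% of all genes. At an unadjusted p under 0.05, 20 were lower, against 16.5% of all genes, and 0 were higher, against 5.01%. On FPKM as deposited, every HO value lay below every WT value in 20 of the 37, as in 21.4% of all genes. In none did every HO value lie above, as in 6.42% of all genes. These counts were not repeated in full with median-of-ratios scaling. That scaling makes several of the 20 overlap, among them Ndufs5, Ndufb7, Ndufa1, Ndufb5, Ndufa11, Ndufc2, Ndufs8 and Ndufs6. In 9 of the 17 other genes the groups crossed only through HO replicate 1 and WT replicate 3.

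**Figure D1:**
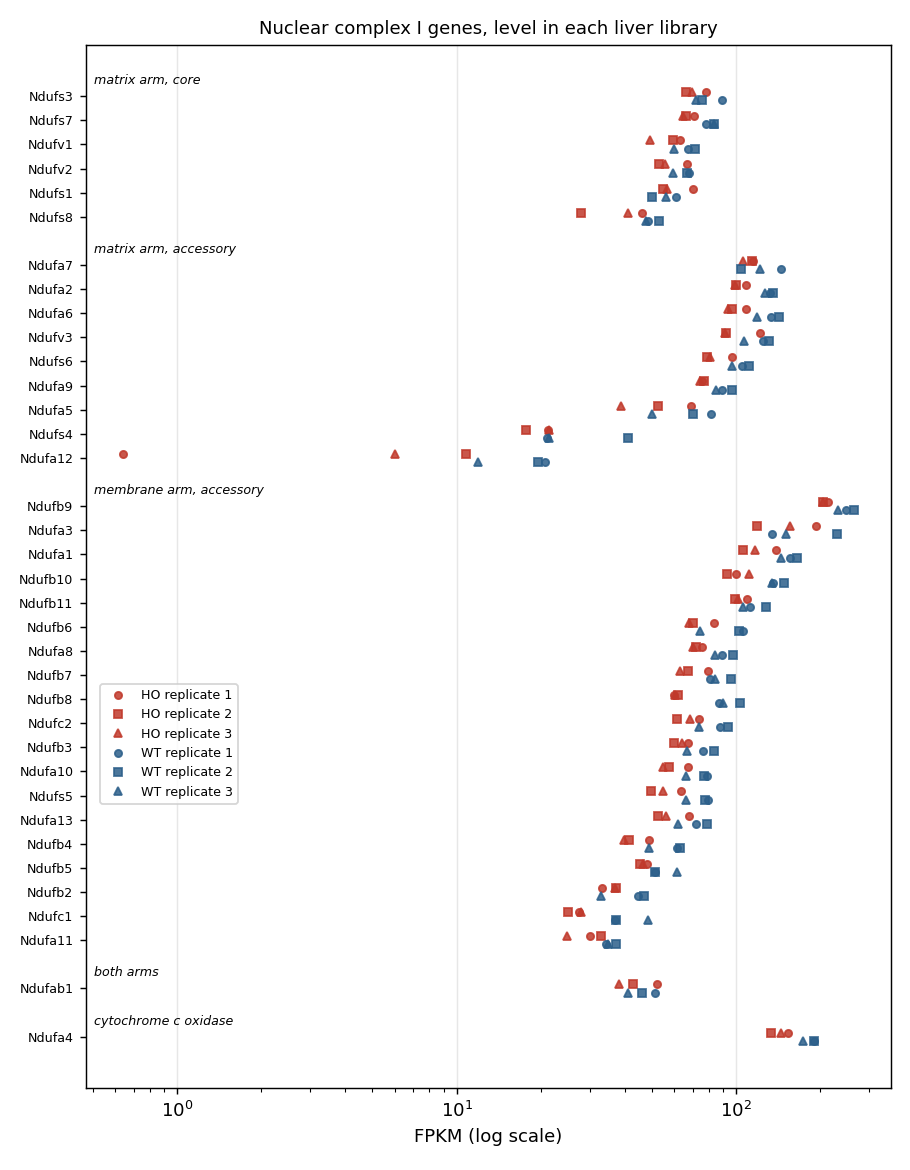
Level of 36 of the 37 nuclear genes in each library, in FPKM on a log axis, grouped by place in the enzyme, with HO libraries in red drawn above WT libraries in blue. Most genes lie between 25 and 150 FPKM with HO points to the left of WT points, and Ndufa12 stands apart at the low end.

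Levels of the nuclear genes were mostly close to one another. In 31 of 37 the mean lay between 25 and 150 FPKM in both groups, and the median of the 37 means was 75.2 FPKM. Ndufb9, a membrane arm subunit of the LYR family that binds acyl carrier protein, was the highest. It stood at 213, 204 and 205 FPKM in HO replicates 1, 2 and 3, against 247, 264 and 232 FPKM in WT replicates 1, 2 and 3. Each HO value was below each WT value, and the log2 change was -0.26 ± 0.08 (SE; adjusted p by limma 0.145). Ndufa3, a small membrane arm subunit and another of the 3 highest, varied as much within as between groups, at 192.5, 119 and 156 FPKM in HO and 135, 229 and 151 FPKM in WT (limma adjusted p = 0.794).

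Ndufb8, an accessory subunit of the distal membrane arm that is often used as a marker of assembled complex I, fell in HO. It was at 60.1, 62.0 and 60.4 FPKM in HO replicates 1, 2 and 3, against 86.6, 103 and 90.1 FPKM in WT replicates 1, 2 and 3. The 3 HO libraries were nearly equal and all lay well below the lowest WT library. The HO mean was 0.653 times the WT mean, and the log2 change was -0.61 ± 0.09 (SE, limma adjusted p = 0.0362, n = 3 each). Ndufb8 lies on chromosome 19 from 44548572 to 44555440 on the minus strand (mm10), and shares that stretch with Gm20538, an annotated gene on the same strand not analysed here. The call held in 6 of 15 other settings, while the log2 change stayed between -0.66 and -0.50. When a library was dropped the limma adjusted p was 0.13 for WT replicate 1, 0.134 for WT replicate 2 and 0.046 for WT replicate 3, and it was 0.0542, 0.0981 and 0.106 for HO replicates 1, 2 and 3. It was 0.0641 with median-of-ratios scaling, 0.0554 after quantile normalization and 0.0627 with no filter.

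The 250 bases upstream of the start of Ndufb8 are printed with those of Ndufa8 and Ndufs5, 2 other members whose groups did not overlap as deposited. They were chosen since all 3 had lower levels in HO and differ in whether they hold a match to the motif of NRF1. NRF1 is a transcription factor known for nuclear genes of respiration. Capitals mark the match. The sequences are from RefSeq (GRCm38.p6), 5′ to 3′ on the strand of the gene, and the start is that of RefSeq. GENCODE, used for gene positions here, starts Ndufa8 at 36049406 and Ndufs5 at 123718202, both on the minus strand. The last bases of these 2 windows therefore lie inside the GENCODE gene, and in Ndufa8 they include the match.
Ndufb8, chr19:44555443-44555692, minus strand: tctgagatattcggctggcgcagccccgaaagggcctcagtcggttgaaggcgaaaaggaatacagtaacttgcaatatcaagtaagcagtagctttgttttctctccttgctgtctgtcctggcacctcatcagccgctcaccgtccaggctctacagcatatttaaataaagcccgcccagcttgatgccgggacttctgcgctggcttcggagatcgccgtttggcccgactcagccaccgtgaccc
Ndufa8, chr2:36049339-36049588, minus strand: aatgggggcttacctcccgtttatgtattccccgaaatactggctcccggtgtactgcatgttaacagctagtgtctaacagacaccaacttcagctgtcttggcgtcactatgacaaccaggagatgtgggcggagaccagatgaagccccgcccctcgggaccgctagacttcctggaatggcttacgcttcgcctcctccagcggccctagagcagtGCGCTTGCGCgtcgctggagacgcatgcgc
Ndufs5, chr4:123718187-123718436, minus strand: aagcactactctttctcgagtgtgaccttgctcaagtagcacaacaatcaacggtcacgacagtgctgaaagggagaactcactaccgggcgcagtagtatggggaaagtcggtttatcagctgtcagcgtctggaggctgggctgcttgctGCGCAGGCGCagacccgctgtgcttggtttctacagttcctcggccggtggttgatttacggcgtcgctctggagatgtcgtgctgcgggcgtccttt
Of the 37 nuclear members, 33 had an entry in that table. The NRF1 motif was searched on both strands as the letters GCGCA, any base, then GCGC, and it was in this window for 6 of the 33 (18.2%), against 4.23% of the 27025 genes with a promoter entry and 9.38% of the 9404 fitted genes with one. The 6 were Ndufa5, Ndufa8, Ndufa11, Ndufb4, Ndufs5 and Ndufs6, with a median log2 change of -0.33, beside -0.28 for the members with an entry and no match. The letters CCGGAAG, on either strand, of the ETS family, which includes the respiratory factor GABP, were found for Ndufb6, Ndufb7 and Ndufs3 (3 of 33, against 7.83% of all and 15.8% of fitted genes). The letters TCAAGGTCA of ERR receptors (0.422% of all genes) and AAGATG followed by GCGG of YY1 (0.359%) were in 0 of the 33 windows on either strand. None of the 33 members held matches to more than 1 of these motifs.

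**Figure D2:**
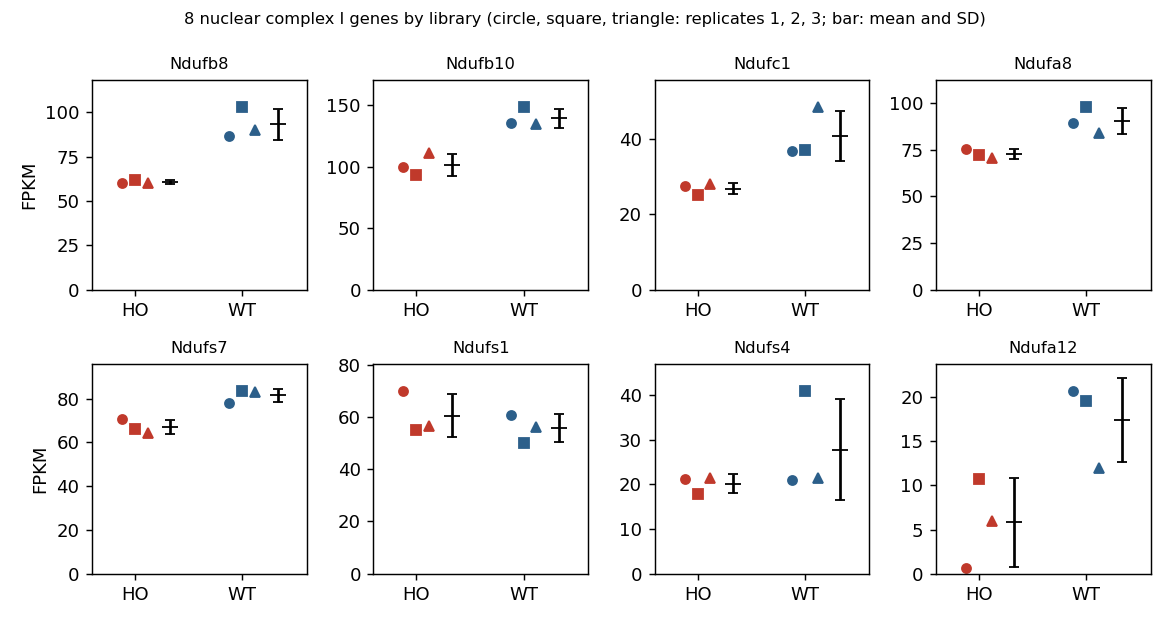
FPKM in each library for 8 nuclear genes, HO left of WT, with each library as a point and the mean and SD as a bar (n = 3 each). HO points lie below WT points for Ndufb8, Ndufb10, Ndufc1, Ndufa8, Ndufs7 and Ndufa12, while Ndufs1 overlaps and Ndufs4 is raised in WT replicate 2 alone.

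Of 20 symbols listed for nuclear accessory genes of the membrane arm, the proton-pumping part of the enzyme, 19 were in the table. They were Ndufb8 and 18 others, and none of the 18 passed, against 1.14% of all genes in either direction. These 19 nuclear accessory genes all had a negative log2 change, against 64.6% of all genes. Their median was -0.31, beside -0.09 over all genes. Differences between the parts of the enzyme were not tested. Ndufb10, a subunit facing the intermembrane space, was at 99.7, 93.1 and 111 FPKM in HO replicates 1, 2 and 3, against 135, 149 and 135 FPKM in WT replicates 1, 2 and 3 (log2 change -0.46 ± 0.10, SE, limma adjusted p = 0.0727). Ndufc1, a small membrane subunit, was at 27.4, 25.1 and 27.9 FPKM in HO and at 36.9, 37.1 and 48.4 FPKM in WT (log2 change -0.59 ± 0.13, limma adjusted p = 0.075). Ndufa8, one of several subunits held by disulphide bonds on the outer face, was at 75.4, 72.1 and 70.2 FPKM in HO and at 89.3, 97.7 and 83.8 FPKM in WT (log2 change -0.31 ± 0.09, limma adjusted p = 0.112). In all of these the groups did not overlap. The same was true of Ndufs5, Ndufb7 and Ndufa1, of Ndufb9, Ndufb5, Ndufa11 and Ndufc2, with limma adjusted p of 0.12 for Ndufs5 to 0.24 for Ndufb5. Divided by the median-of-ratios factors, the groups of Ndufs5, Ndufb7, Ndufa1, Ndufb5, Ndufa11 and Ndufc2 overlapped. HO and WT values overlapped in Ndufb2, Ndufb3, Ndufb4, Ndufb6, Ndufb11, Ndufa3, Ndufa10 and Ndufa13.

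Core genes of the matrix arm, which carry the flavin, the iron-sulphur clusters and the quinone site, numbered 7. They had 6 negative log2 changes, against 64.6% of all genes, and a median of -0.21, beside -0.09. None passed, against 1.14% of all genes in either direction. Ndufs7, which holds the last cluster before ubiquinone, was at 70.6, 66.2 and 64.3 FPKM in HO replicates 1, 2 and 3, against 78.0, 83.4 and 83.1 FPKM in WT replicates 1, 2 and 3. These groups did not overlap (log2 change -0.28 ± 0.08, SE, limma adjusted p = 0.114). The same was true of Ndufs8, a carrier of iron-sulphur clusters, as deposited but not after median-of-ratios scaling. Ndufv1, which binds NADH and the flavin, its partner Ndufv2, and Ndufs3 overlapped between the groups, with log2 changes of -0.21, -0.15 and -0.14. Ndufs1, the largest subunit of the matrix arm and a carrier of iron-sulphur clusters, had the 1 positive log2 change among the 37. It was at 69.9, 55.0 and 56.7 FPKM in HO and at 60.8, 50.0 and 56.3 FPKM in WT, with overlapping groups and a log2 change of 0.12 (95% interval -0.17 to 0.41, limma adjusted p = 0.629). Ndufs1 shares part of its stretch of chromosome 1 with Eef1b2 on the other strand, which averaged 56.4 FPKM. Such sharing was not particular to Ndufs1. Among the 37, 19 overlapped another annotated gene, and 10 overlapped a gene at 1 FPKM or more.

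Accessory genes of the matrix arm numbered 9, all with a negative log2 change, against 64.6% of all genes. Their median was -0.34, beside -0.09 over all genes. None passed, against 1.14% of all genes in either direction. Ndufa2, a subunit with a thioredoxin-like fold, was at 109, 99.7 and 98.8 FPKM in HO replicates 1, 2 and 3, against 132, 135 and 127 FPKM in WT replicates 1, 2 and 3 (log2 change -0.36 ± 0.08, SE, limma adjusted p = 0.0777). Ndufa6, which anchors 1 of the acyl carrier proteins, was at 109, 96.7 and 93.8 FPKM in HO and at 133, 142 and 119 FPKM in WT (log2 change -0.39 ± 0.10, limma adjusted p = 0.0968). In both the highest HO library stayed under the lowest WT library, as it did in Ndufa9, Ndufs6 and Ndufa12. In Ndufs6 this held as deposited but not after median-of-ratios scaling. Ndufa5, Ndufa7, Ndufv3 and Ndufs4 overlapped. Ndufs4, whose human form is mutated in Leigh syndrome and which is named here after its values were seen, was at 21.2, 17.8 and 21.5 FPKM in HO and at 21.1, 40.9 and 21.4 FPKM in WT, so that its mean difference came from WT replicate 2. Ndufs4 (114287795 to 114388258) and Ndufs6 (73319838 to 73328542) lie on chromosome 13, which also holds Lncenc1 (97434970 to 97497007, mm10).

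Ndufa12, an accessory subunit of the matrix arm whose place is held by the assembly factor Ndufaf2 until late in assembly, had the largest log2 change and the widest error of the 37. It was at 0.639, 10.8 and 6.01 FPKM in HO replicates 1, 2 and 3, against 20.7, 19.5 and 11.97 FPKM in WT replicates 1, 2 and 3. HO replicate 1 was far below the other libraries, and the groups did not overlap. The log2 change was -1.995 ± 0.77 (SE, limma adjusted p = 0.199), and -1.02 without HO replicate 1 (limma adjusted p = 0.132). A processed pseudogene, Gm15920 on chromosome 5, was identical to Ndufa12 at 99.5% of 402 aligned bases, and was listed at 23.0, 17.7 and 15.5 FPKM in HO replicates 1, 2 and 3 and at 17.04, 21.7 and 19.3 FPKM in WT replicates 1, 2 and 3. The 2 genes can share reads and the level of Ndufa12 is uncertain. Annotated copies at 95% identity or more over 200 or more aligned bases existed for 12 of the 37 nuclear genes, counting genes that overlap them in the genome.

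Ndufab1, the mitochondrial acyl carrier protein, which sits in both arms of the enzyme and also serves lipoic acid synthesis, showed little difference. It was at 51.9, 42.7 and 38.1 FPKM in HO replicates 1, 2 and 3, against 51.3, 45.9 and 40.9 FPKM in WT replicates 1, 2 and 3. The groups overlapped almost wholly, with a log2 change of -0.06 (95% interval -0.39 to 0.27, limma adjusted p = 0.835) that turned positive, at 0.04, with median-of-ratios scaling or quantile normalization. Ndufa4 carries a complex I name, but its product is now assigned to cytochrome c oxidase. It was at 153, 133 and 145 FPKM in HO and at 191, 191 and 174 FPKM in WT, without overlap (log2 change -0.36 ± 0.09, SE, limma adjusted p = 0.0894). Leaving it out gave 35 negative log2 changes among 36 genes and the same median of -0.29.

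**Figure D3:**
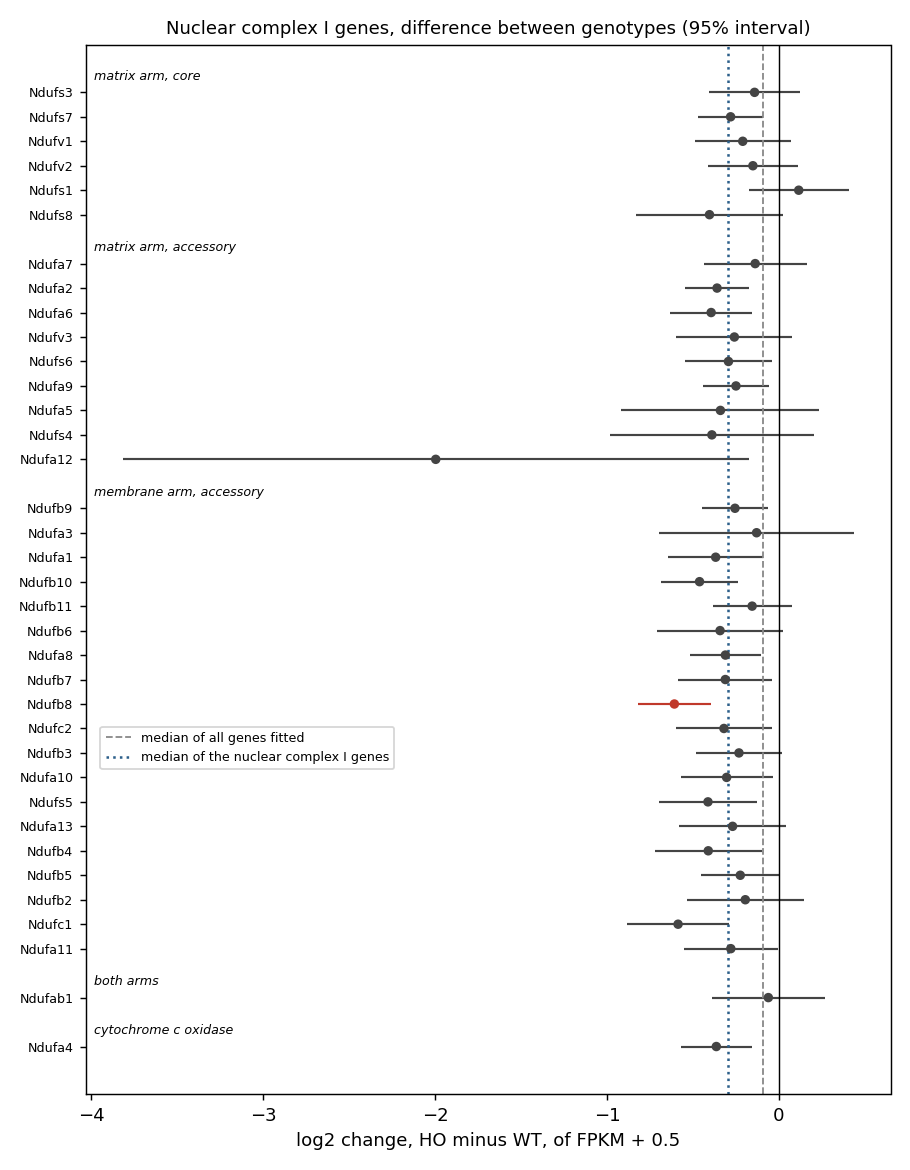
Log2 change of 36 of the 37 nuclear genes, HO minus WT, on the log2(FPKM + 0.5) scale with its 95% interval from limma, grouped by place in the enzyme, and Ndufb8 in red as the 1 that passed. The dotted line is the median of the 37 genes at -0.29, the dashed line that of all genes at -0.09, and many of the intervals reach or cross 0.

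Of 53 symbols listed for nuclear subunits of complexes II to V, the other enzymes of oxidative phosphorylation, 38 were in the table. Of these 38, 0 passed, against 1.14% of all genes in either direction. Their median log2 change was -0.26, and 38 had a negative one, against 64.6% of all genes, but 34 with median-of-ratios scaling, against 50.4% of all genes. In 22 every HO value as deposited lay below every WT value, against 21.4% of all genes. The difference between this list and complex I was not tested. HO replicate 1 was nearest to WT among the HO libraries and WT replicate 3 nearest to HO among the WT libraries. The median log2 deviation of the 37 genes from their 6-library means was -0.03, -0.21 and -0.20 in HO replicates 1, 2 and 3 and 0.16, 0.25 and 0.04 in WT replicates 1, 2 and 3. HO replicate 1 was the highest HO library in 29 of the 37 genes, and WT replicate 3 the lowest WT library in 27. With median-of-ratios scaling these deviations were 0.03, -0.14 and -0.16 in HO and 0.11, 0.20 and -0.01 in WT, so that HO replicate 1 lay above WT replicate 3. The median log2 change was then -0.19, with -0.00 over all genes, and 35 of the 37 were negative, against 50.4% of all genes.

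**Figure D4:**
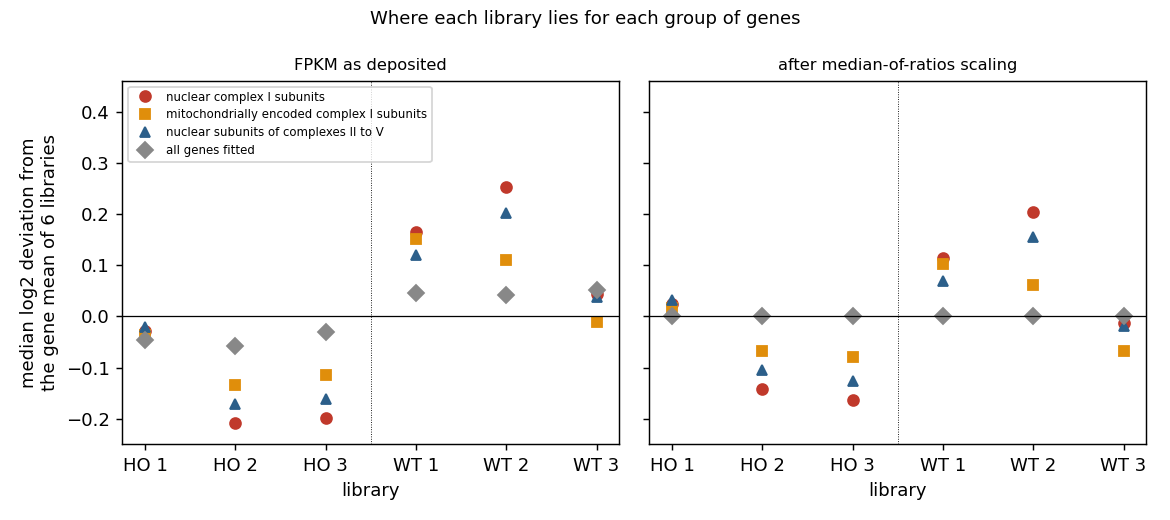
Median log2 deviation of each gene group from the 6-library mean of its genes, for each library, with HO libraries left of WT libraries, as deposited and after median-of-ratios scaling. Nuclear complex I genes and those of complexes II to V run together, and HO replicate 1 and WT replicate 3 lie close to each other.

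Mitochondrially encoded subunits form the proton-pumping core of the membrane arm and the floor of the quinone site. None of the 7 passed, against 0.815% of all genes as lower, and 6 had a negative log2 change, against 64.6% of all genes, with a median of -0.17. With median-of-ratios scaling 5 were negative, against 50.4% of all genes. Their summed level was 21895, 19996 and 19699 FPKM in HO replicates 1, 2 and 3, against 24588, 23040.4 and 21648 FPKM in WT replicates 1, 2 and 3, with HO replicate 1 above WT replicate 3. Genes listed on the mitochondrial genome together made up 8.30% ± 0.468 of summed FPKM in HO and 9.35% ± 0.417 in WT (SD, n = 3 each), leaving out what was listed under their nuclear copies. As deposited, the groups did not overlap in mt-Nd6, mt-Nd3 and mt-Nd1, each lower in HO, against 21.4% of all genes. Divided by the median-of-ratios factors, HO replicate 1 lay above WT replicate 3 in mt-Nd6 and mt-Nd1. Only mt-Nd3 of these stayed without overlap, and only at its level without its nuclear copy.

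Of these 7, mt-Nd6, the 1 subunit gene on the minus strand of the mitochondrial genome, had the largest log2 change. It was at 3514, 3463 and 3221 FPKM in HO replicates 1, 2 and 3, against 4835, 4219.5 and 3771 FPKM in WT replicates 1, 2 and 3 (log2 change -0.32 ± 0.12, SE, limma adjusted p = 0.184). It shares its end with mt-Nd5 on the other strand, and the sources used here do not say whether counting used the strand. The pump subunit mt-Nd5 itself was at 2685, 2747 and 2832 FPKM in HO and at 3001, 2688 and 2588 FPKM in WT, with overlapping groups and a log2 change of 0.00 (95% interval -0.23 to 0.23, limma adjusted p = 0.999) that turned negative, at -0.25, with quantile normalization. The quinone-site subunit mt-Nd1 was at 4919, 4454 and 4543 FPKM in HO and at 5465, 5000.2 and 5204 FPKM in WT (log2 change -0.17 ± 0.10, limma adjusted p = 0.369). The pump subunits mt-Nd2 and mt-Nd4 overlapped between the groups. In HO they stood at 7255, 6332 and 6188 FPKM and at 3439.7, 2919 and 2831 FPKM, and in WT at 7489.8, 7435 and 6763 FPKM and at 3703, 3599 and 3229 FPKM.

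Levels within the mitochondrial genome were far apart, and the 2 lowest members, mt-Nd3 and mt-Nd4l, were the ones with copies in the nucleus over nearly their full length. The subunit mt-Nd3, at the hinge of the arms, was at 56.9, 56.1 and 58.1 FPKM in HO replicates 1, 2 and 3, against 69.9, 70.6 and 63.9 FPKM in WT replicates 1, 2 and 3 (log2 change -0.25 ± 0.08, SE, limma adjusted p = 0.136). The small membrane subunit mt-Nd4l was at 25.3, 25.6 and 25.4 FPKM in HO and at 23.9, 28.1 and 28.7 FPKM in WT (log2 change -0.08 ± 0.10, limma adjusted p = 0.695). The other 5 were at 2588 FPKM or more in every library. On chromosome 1, Gm28438 (24612775 to 24613119) matched mt-Nd3 at 99.7% of 345 bases, Gm10222 (24612407 to 24612700) matched mt-Nd4l at 100% of 294 bases, and Gm28439 (24611535 to 24612410) matched 876 of the 1378 bases of mt-Nd4 at 100%. The first 60 bases of mt-Nd3 and of its copy show how little there is to tell reads apart, with the 1 difference in capitals, T3C counted from the first base of each. Both are from GENCODE release 21 (GRCm38), 5′ to 3′ on the strand of the gene.
mt-Nd3, chrM:9459-9518, plus strand: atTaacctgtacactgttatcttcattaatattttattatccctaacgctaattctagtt
Gm28438, chr1:24613060-24613119, minus strand: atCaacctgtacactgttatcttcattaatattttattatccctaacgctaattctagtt
The copies of mt-Nd3 and mt-Nd4l were listed at higher levels than the genes they match. Gm28438 was at 354, 289 and 298 FPKM in HO replicates 1, 2 and 3 and at 396, 350.3 and 381 FPKM in WT replicates 1, 2 and 3. Gm10222 was at 535, 453 and 511 FPKM in HO and at 524, 504 and 482 FPKM in WT. With each copy added to its gene in proportion to length, a choice made after seeing the data, mt-Nd3 was at 408, 342 and 354 FPKM in HO and 463, 418 and 441 FPKM in WT, mt-Nd4l had a log2 change of -0.02, and the 7 still gave 0 past the threshold. After median-of-ratios scaling of these added levels, HO replicate 1 lay above WT replicate 2 in mt-Nd3, so that its groups overlapped.

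**Figure D5:**
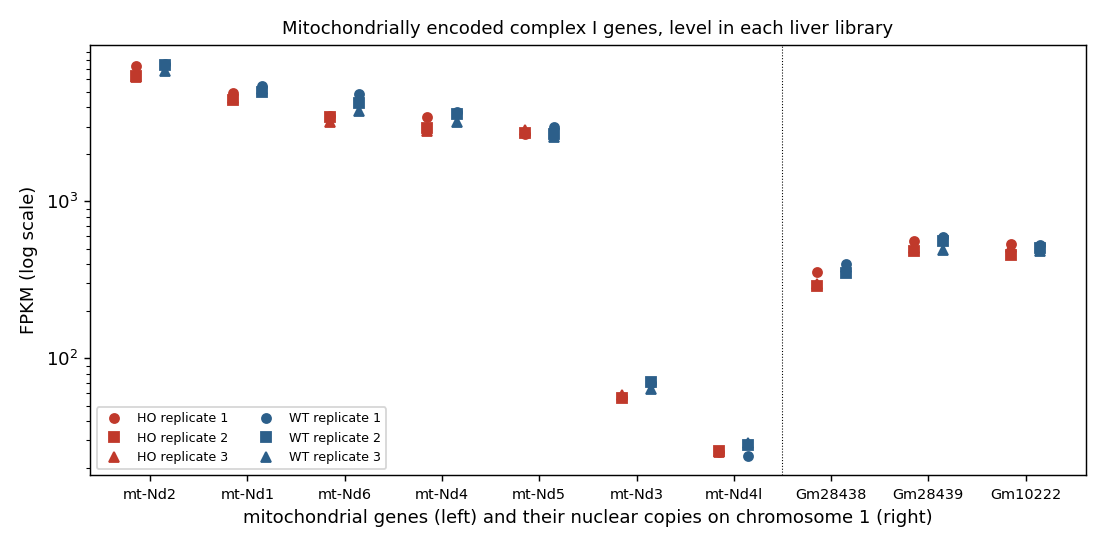
FPKM on a log axis of the 7 mitochondrially encoded complex I genes and of 3 nuclear copies on chromosome 1, in each library, with HO left of WT. The genes mt-Nd3 and mt-Nd4l lie below 100 FPKM, under their copies Gm28438 and Gm10222, and the other 5 lie at 2588 FPKM or more.

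No gene that builds complex I or regulates its genes passed either, among the lists examined. Over all genes fitted 1.14% passed in either direction, so that 0 in lists this short was near the background. Of 19 assembly factors in the table, 0 passed, 14 had a negative log2 change, against 64.6% of all genes, and the median was -0.16. In 5 of them the HO values all lay below the WT values, against 21.4% of all genes, so that both counts were near the background. Acad9, a factor of the membrane arm that is also an acyl-CoA dehydrogenase, was at 10.3, 10.5 and 9.34 FPKM in HO replicates 1, 2 and 3, against 15.6, 13.6 and 13.5 FPKM in WT replicates 1, 2 and 3 (log2 change -0.48 ± 0.10, SE, limma adjusted p = 0.0747). Ndufaf8, an assembly factor that acts with Ndufaf5, was at 13.1, 12.5 and 13.8 FPKM in HO and at 16.1, 18.2 and 16.7 FPKM in WT (limma adjusted p = 0.0968). Both were lower in each HO library than in any WT library.

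Of 8 regulators of nuclear respiratory genes, 0 passed, against 1.14% of all genes in either direction. The 2 with the smallest p had opposite signs. Ppargc1b, a coactivator of mitochondrial biogenesis, was at 2.52, 1.63 and 2.49 FPKM in HO replicates 1, 2 and 3, against 1.19, 1.27 and 1.34 FPKM in WT replicates 1, 2 and 3 (log2 change 0.60 ± 0.17, SE, limma adjusted p = 0.115). Ppargc1a, the related coactivator known for fasting and cold, was at 1.08, 0.927 and 1.08 FPKM in HO and at 1.69, 1.63 and 1.202 FPKM in WT (log2 change -0.38 ± 0.15, limma adjusted p = 0.209). In both the groups did not overlap, in opposite directions. Among the 8 regulators, 1 was lower and 1 higher without overlap, against 21.4% and 6.42% of all genes, so that both counts were near the background. Of 14 fitted genes of mitochondrial transcription, replication and RNA stability, 0 passed, against 1.14% of all genes. Their median log2 change was -0.00, beside -0.09 over all genes. Tfam, which packages mitochondrial DNA and starts its transcription, was at 8.29, 8.07 and 9.05 FPKM in HO and at 10.9, 10.3 and 10.8 FPKM in WT (log2 change -0.32 ± 0.09, limma adjusted p = 0.12). Lrpprc, which stabilises mitochondrial messenger RNAs, was at 30.6, 32.6 and 32.1 FPKM in HO and at 24.8, 24.6 and 30.8 FPKM in WT (log2 change 0.25 ± 0.11, limma adjusted p = 0.24), with WT replicate 3 close above the lowest HO library.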

How the data were processed

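Gene levels in 6 liver libraries were deposited as FPKM by the authors, per the file headers. RNA was extracted with Trizol from frozen tissue and made into directional libraries, per the labels' protocols. Per the submitters' processing notes, the build was mm10 and the tools were HISAT2, StringTie, HTSeq and DESeq2. Their roles, and the treatment of strand and of reads with several matches, are not given. All 24034 identifiers were found in GENCODE mouse release 21, which gave positions. No 2 libraries were identical. FPKM is not a count: 34.7% to 37.2% of low values were whole multiples of the commonest step (tolerance 0.02 reads), too few to recover reads, and the steps gave relative depths of 19100000 to 24600000.

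The 13250 genes averaging at least 0.5 FPKM were fitted as log2(FPKM + 0.5) with limma 3.58.1 (R 4.3.3; 2 groups, trended eBayes, two-sided, Benjamini-Hochberg at 0.05 over all genes), after a test on simulated data. This scale understates changes of low genes. Members and lists were chosen with earlier results of these data known. Values in every library are given for the members that passed and, up to 8 nuclear genes, those with the smallest p; the 3 highest, the lowest, the 3 with the largest p, any with the opposite sign, Ndufa4, Ndufab1 and all mitochondrial members; and 2 genes with the smallest p of each of the assembly, regulator and mitochondrial transcription lists. Any other value was chosen after it was seen. Values of 1 nuclear member are not reported here, though it stays in the counts and medians. Copies were searched with blastn 2.17.0. Python 3.11.15, pandas 2.3.3, numpy 2.4.6, scipy 1.17.1 and matplotlib 3.10.9 made tables and figures.

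Alternatives were pseudocounts of 1 and 0.1, no filter, a filter at 1 FPKM, median-of-ratios scaling, quantile normalization, an equal sum over genes not encoded in mitochondria, array weights, a block for the replicate number, and each library left out in turn. Adding nuclear copies to their mitochondrial genes was chosen after seeing the data.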

Additional observations from a re-analysis of the deposited data

How the results depend on the processing

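The nuclear members kept a negative median under each of the 15 alternatives, as did all genes fitted. The median of the nuclear members minus that of all genes ran from -0.29 without HO replicate 1 to -0.14 without HO replicate 3. With median-of-ratios scaling the median of the nuclear members was -0.19. Without single libraries it ran from -0.38 to -0.24. That of the mitochondrial members was -0.0679 after median-of-ratios scaling, -0.26 after quantile normalization, and ran from -0.21 to -0.14 without single libraries. The 1 nuclear gene that passed became 0 with quantile normalization, median-of-ratios scaling, no filter or the replicate block, and 9 with array weights (5.22% of all genes then lower), where HO replicate 1 and WT replicate 3 had weights of 0.545 and 0.699. Without single libraries it was 0 to 1. Mitochondrial members past the threshold were 1 (mt-Nd6, log2 change -0.56) with quantile normalization, and assembly factors 1 (Acad9) with array weights. All genes past the threshold numbered 151, of which 43 were higher and 108 lower, and 100 with a pseudocount of 0.1, 40 with no filter, 941 with array weights, 25 with the replicate block, and 6 to 262 without single libraries. Median-of-ratios scaling gave 67 higher and 66 lower, and quantile normalization 56 and 72. Same-numbered HO and WT libraries did not deviate together (correlations 0.0661, -0.0281 and 0.0147), so the numbers were not taken as pairs. Among the 26 genes given with values by rule, signs turned for Ndufab1 (0.0412 after median-of-ratios scaling, 0.0364 after quantile normalization, -0.181 to 0.0392 without single libraries), mt-Nd4l (0.0266 after median-of-ratios scaling, 0.0143 after quantile normalization), Ndufa3 (-0.296 to 0.0983 without single libraries) and mt-Nd5 (-0.253 with quantile normalization, -0.0207 with an equal non-mitochondrial sum, -0.0444 to 0.0623 without single libraries). The cause of these changes was not tested. Of the 38 genes of complexes II to V, 34 were negative after median-of-ratios scaling and 36 after quantile normalization. Without counts the depth behind each value is unknown.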
